A study of Mus musculus with 12 samples.

Results

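Cav1, Gas6, Rgs4, Tnfsf13b and Eya4 are 5 genes whose level in the embryonic mouse lung differed between left and right with the same sign in Intu-knockout and wild-type embryos. They were selected on that difference, measured between left and right libraries of equal number within each genotype. Of the 31078 genes in the count table, 9519 had enough counts to be tested, and all 5 were among them. Because the side difference chose the genes, left-against-right values of these 5 are given as a description, with no test. The comparison of Intu-knockout with wild-type lungs played no part in the choice and was tested.

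RNA was sequenced from the separated left and right lungs of C57BL/6-background embryos at day 12.5 of embryonic development. The 4 groups were Intu-knockout left, Intu-knockout right, wild-type left and wild-type right lungs, with 3 libraries in each, numbered 1 to 3, and the parents of all embryos were carriers of an Intu knockout allele. The labels name neither the part of Intu that the allele removes nor the embryo behind each library, so a p-value reflects the spread among these libraries, which may be technical. Each library holds the RNA of all cells of a lung, so fewer cells of a type and less RNA per cell cannot be told apart.

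The left and right lungs of the mouse differ in shape, the left being undivided and the right split into several lobes. The side of an organ is set in the early embryo by cilia-driven flow at the node and the Nodal pathway. Intu encodes a protein of the CPLANE complex, which is needed to build primary cilia, and primary cilia in turn carry Hedgehog signalling. The 5 genes have unrelated roles: Cav1 coats membrane pits, Gas6 and Tnfsf13b are secreted ligands, Rgs4 shuts off G-protein signalling, and Eya4 is a transcriptional coactivator and phosphatase.

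The promoters of 3 of the genes are shown. Gas6 and Tnfsf13b are the 2 on chromosome 8 and had side differences of opposite sign, and Rgs4 varied most between libraries. Each promoter is the 250 bases before the RefSeq transcription start (GRCm38.p6), written 5′ to 3′ on the strand of the gene. Capitals mark the TATA box letters TATAAA, which were searched on both strands.
Gas6 promoter, chr8:13494536-13494785, minus strand: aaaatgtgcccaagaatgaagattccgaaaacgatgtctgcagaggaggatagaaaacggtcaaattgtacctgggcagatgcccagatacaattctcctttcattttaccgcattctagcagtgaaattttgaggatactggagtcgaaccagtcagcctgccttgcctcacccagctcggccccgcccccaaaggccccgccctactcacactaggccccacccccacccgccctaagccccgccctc
Tnfsf13b promoter, chr8:10006217-10006466, plus strand: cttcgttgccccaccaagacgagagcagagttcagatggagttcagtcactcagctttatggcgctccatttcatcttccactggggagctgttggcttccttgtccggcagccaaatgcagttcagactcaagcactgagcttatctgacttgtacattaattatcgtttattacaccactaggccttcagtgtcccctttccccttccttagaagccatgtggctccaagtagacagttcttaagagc
Rgs4 promoter, chr1:169747643-169747892, minus strand: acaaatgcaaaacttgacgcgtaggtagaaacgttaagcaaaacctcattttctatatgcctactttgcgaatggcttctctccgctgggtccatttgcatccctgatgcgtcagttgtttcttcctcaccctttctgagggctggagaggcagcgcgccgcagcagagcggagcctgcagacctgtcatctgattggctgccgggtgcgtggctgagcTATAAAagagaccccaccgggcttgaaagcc

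The Rgs4 promoter held TATAAA once, beginning 31 bases before the start, and the Cav1 promoter held it once on the opposite strand, 221 bases before the start. These letters were present in 13% of 27025 promoters of the same length. The GLI core GACCACCCA, present in 0.211% of those promoters, was searched on both strands and was not among the letters of any of the 5 windows. Base composition set Eya4 apart: its promoter was 74% G or C with 35 CpG pairs, more than 97.2% of promoters. The other 4 had 48.8% to 59.6% G or C and 5 to 13 CpG pairs, beside medians of 52% and 6 over all promoters. The RefSeq start used for Eya4 lies 843 bases inside the 5′ end of the gene in the deposited table, and that for Gas6 lies 45 bases upstream of the deposited gene, outside it.

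The 5 genes lie on 4 chromosomes (GRCm38, as in the deposited table). Cav1 lies on chromosome 6 at 17306335 to 17341452 on the plus strand. Gas6, at 13465374 to 13494490 on the minus strand, and Tnfsf13b, at 10006467 to 10039072 on the plus strand, are both on chromosome 8, with starts 3.49 Mb apart. Rgs4 lies on chromosome 1 at 169741477 to 169747642 and Eya4 on chromosome 10 at 23102963 to 23350786, both on the minus strand. All are protein-coding, and values are counts over all annotated exons. An exon of Gas6 overlaps one of Tmem255b, on the other strand, by up to 34 bases, and whether counting used strand is not given in the sources used here. Tmem255b had 83 counts in all 12 libraries together, against 9282 for Gas6.

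Libraries held 10290103 to 10753386 counts over the chromosomes analysed. Expression levels below are in counts-per-million (CPM), with those totals scaled between libraries. Intu itself had 26.2 to 31.4 CPM in Intu-knockout lungs and 28.2 to 34 CPM in wild-type lungs, a log2 difference of -0.16 (SE 0.06, unadjusted p = 0.0222, adjusted p = 0.162 in edgeR's quasi-likelihood test), and the ranges of the 2 genotypes overlapped. On the left they did not: Intu had 26.2 to 27.5 CPM in Intu-knockout and 30.5 to 32.5 CPM in wild-type left lungs (unadjusted p = 0.0305, adjusted p = 0.38, edgeR), as 8.26% of tested genes lay wholly lower in the knockout there. Gli1, a direct target of Hedgehog signalling, did not overlap over both sides: it had 151 to 185 CPM in Intu-knockout lungs and 345 to 394 CPM in wild-type lungs. Intu-knockout left lung 1 stood apart in liver markers: Alb, Afp and Apoa2 summed to 87.4 CPM there and to 4.22 to 9.82 CPM in the other 11 libraries.

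The genes span a wide range of abundance. Per kilobase of exon, Cav1 averaged 80.4 CPM over the 12 libraries, a level above that of 92.9% of tested genes. Gas6 averaged 29 CPM per kilobase (above 78.1% of tested genes) and Rgs4 5.91 (above 42.2%). Tnfsf13b averaged 4.14 CPM per kilobase and Eya4 2.13, above 36.2% and 26% of tested genes. Cav1 thus led the order, and the intervals between its lowest and highest library (50.3 to 101 CPM per kilobase) and those of Gas6 (21.8 to 36.7) did not meet. Rgs4 ranged over 1.4 to 12.1 CPM per kilobase and enclosed the ranges of Tnfsf13b (3.05 to 5.3) and Eya4 (1.58 to 2.87). Within a gene, the highest library was 1.68 to 2 times the lowest for Cav1, Gas6, Tnfsf13b and Eya4, and 8.63 times the lowest for Rgs4.

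**Figure D1:**
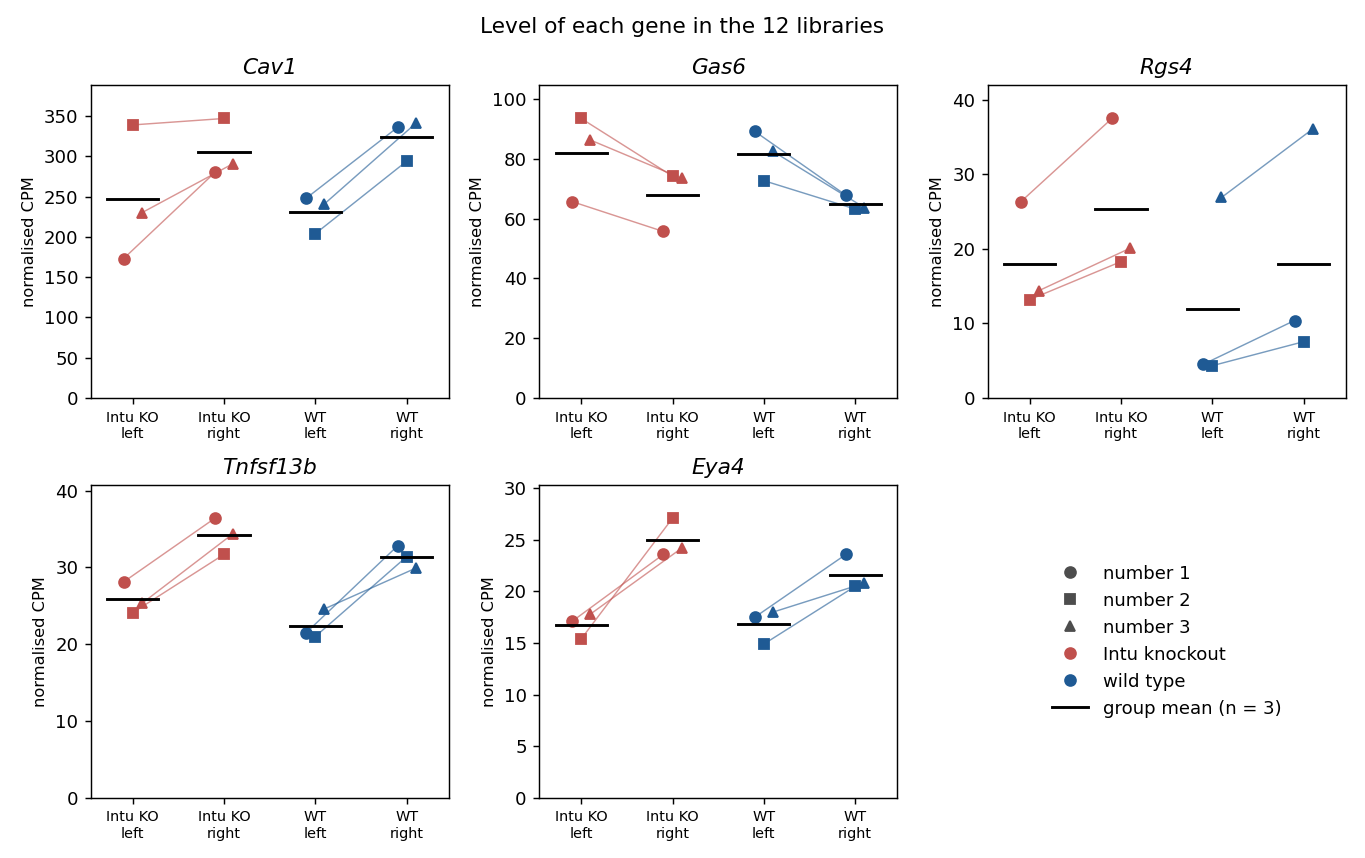
Normalised CPM of Cav1, Gas6, Rgs4, Tnfsf13b and Eya4 in each of the 12 libraries, by group (Intu-knockout left and right, wild-type left and right). Points are libraries, thin lines join left and right libraries of one number, and bars are means of 3; every line slopes the same way within a gene, upward to the right lung except for Gas6, and the Rgs4 lines lie far apart in height.

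Cav1 encodes caveolin-1, the scaffold of caveolae, and is abundant in endothelial cells. It had 173, 339 and 230 CPM in Intu-knockout left lungs 1, 2 and 3, against 280, 347 and 291 CPM in the right lungs of the same numbers. The wild-type values were 248, 204 and 241 CPM in left lungs and 336, 294 and 341 CPM in right lungs. The left library was the lower one in 6 of 6 numbered pairs, a pattern that 3.05% of all tested genes shared. Left and right did not overlap in wild type, where 4.24% of tested genes had left wholly below right, and overlapped in the knockout, where left lung 2 was almost as high as its right partner. The mean log2 difference of left minus right within pairs was -0.36 (SD 0.33, n = 3) in the knockout and -0.49 (SD 0.04, n = 3) in wild type.

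Intu-knockout pair 2, with the highest Cav1, also had the highest summed level of 10 tested endothelial markers, 1774 CPM on the left and 1643 CPM on the right, against 1312 to 1503 CPM in the other 10 libraries. Their median log2 difference of left minus right was 0.03 in the knockout, where 9 were positive and 1 negative. It was 0.01 in wild type, where 6 were positive and 4 negative, beside 0.00 over all tested genes in both. They had 0 of 10 called in either genotype by edgeR, with or without pairs, or by DESeq2, and 1 in each at an unadjusted p under 0.05 (edgeR, pairs as a block). Their part in the Cav1 difference was not tested. Intu-knockout pair 1, which holds the library with liver markers, had the largest Cav1 side difference. Without that pair the fitted side difference in the knockout was -0.16, beside -0.31 with it. Without pair 2 it was -0.50.

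No side difference was called among the other genes of the caveola. Of 10 listed, 7 were tested, and of the 6 besides Cav1, 0 were called between left and right in either genotype by edgeR, with or without pairs, or by DESeq2. With pairs, 1 in each genotype had an unadjusted p under 0.05, and 0.452% of all genes were called in the knockout and 0.662% in wild type (0% and 0.0105% without pairs). Their median log2 difference of left minus right was 0.00 in the knockout and 0.09 in wild type, beside 0.00 over all tested genes in both. Cav2, which partners caveolin-1 and starts 25.1 kb from it, had differences of 0.04 (SE 0.17) and 0.11 (SE 0.17). Cavin3, a coat adaptor, had 0.19 (SE 0.12) and 0.23 (SE 0.12), positive where Cav1 was negative. Ehd2, an ATPase at the caveolar neck, had 0.05 and 0.07 (SE 0.12 each).

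Gas6 encodes a vitamin K-dependent ligand of the TAM receptor kinases Tyro3, Axl and Mertk, and was the 1 gene of the 5 that was higher on the left. It had 65.7, 93.5 and 86.3 CPM in Intu-knockout left lungs, against 55.7, 74.2 and 73.5 CPM in the right lungs of the same numbers. Wild-type embryos had 89.2, 72.7 and 82.5 CPM in left lungs and 67.8, 63.2 and 63.7 CPM in right lungs. Left was above right in 6 of 6 pairs, as for 3.46% of tested genes. The groups did not overlap in wild type, as for 4.32% of tested genes (3.97% in the knockout), and overlapped in the knockout, where pair 1 was the lowest on both sides. The mean pair difference was 0.27 (SD 0.06, n = 3) in the knockout and 0.32 (SD 0.10, n = 3) in wild type, a left lung 1.21 and 1.25 times the right.

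Erythroid genes also lay higher on the left. All 7 listed were tested and all 7 had a positive log2 difference of left minus right in both genotypes, with medians of 0.26 in the knockout and 0.43 in wild type. Their summed level was 2862 to 3853 CPM in Intu-knockout left and 2467 to 3262 CPM in Intu-knockout right lungs, and 2946 to 3460 CPM in wild-type left and 2181 to 2425 CPM in wild-type right lungs. With pairs as a block, 1 of them was called higher on the left in the knockout and 4 in wild type, against 0 without pairs (edgeR; 2 in wild type at an unadjusted p under 0.05, and 1 called there by DESeq2). Over all tested genes, 0.263% were called higher on the left with that block in the knockout and 0.273% in wild type. With pairs as a random effect (limma-voom), 0 of the 7 were called in the knockout and 1, Hbb-y, in wild type, beside 0.021% and 0.137% of all tested genes. Their part in the Gas6 difference, or in that of the other 4 genes, was not tested.

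The receptors of Gas6 had small side differences, mostly of the opposite sign or near zero. Axl, at 225 CPM the most abundant of the 3, had a log2 difference of left minus right of -0.05 (SE 0.06) in the knockout and -0.08 (SE 0.06) in wild type. Tyro3 had 0.01 and -0.01 (SE 0.06 each). Mertk was -0.18 (SE 0.13) in the knockout and 0.01 (SE 0.13) in wild type. Of the 8 listed genes of the TAM receptors and of vitamin K-dependent carboxylation, 7 were tested, and 0 of the 6 besides Gas6 were called between sides in either genotype by edgeR, with or without pairs, or by DESeq2, and 0 had an unadjusted p under 0.05.

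Tnfsf13b encodes BAFF, a survival factor of B cells made mostly by myeloid and stromal cells. It had 28.1, 24.1 and 25.3 CPM in Intu-knockout left lungs and 36.4, 31.7 and 34.4 CPM in Intu-knockout right lungs. In wild-type embryos it had 21.5, 21 and 24.6 CPM in left lungs and 32.8, 31.4 and 29.9 CPM in right lungs. Left lay wholly below right in both genotypes, which held for 4.21% of all tested genes in the knockout, 4.24% in wild type and 0.389% in both. The mean pair difference was -0.40 (SD 0.03, n = 3) in the knockout and -0.49 (SD 0.18, n = 3) in wild type, where pair 3 had the smallest difference, -0.28. Its receptors and the related ligand APRIL lie outside the chromosomes analysed here.

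Myeloid markers had medians of the opposite sign. Over 10 tested myeloid genes the median log2 difference of left minus right was 0.13 in the knockout, where 7 were positive and 3 negative. It was 0.09 in wild type, where 9 were positive and 1 negative. In either genotype 0 were called by edgeR, with or without pairs, or by DESeq2. With pairs, 3 in the knockout and 1 in wild type had an unadjusted p under 0.05. Their sum was 174 to 217 CPM in Intu-knockout left and 170 to 193 CPM in Intu-knockout right lungs. In wild type it was 253 to 282 CPM in left and 236 to 257 CPM in right lungs. Their part in the Tnfsf13b difference was not tested.

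Eya4 encodes a coactivator that works with sine oculis-type transcription factors and carries a phosphatase domain. It had 17.1, 15.4 and 17.8 CPM in Intu-knockout left lungs and 23.6, 27.1 and 24.2 CPM in Intu-knockout right lungs. In wild-type embryos it had 17.5, 14.9 and 18 CPM in left lungs and 23.6, 20.5 and 20.8 CPM in right lungs. As with Tnfsf13b, left lay wholly below right in both genotypes. The mean pair difference was -0.57 (SD 0.20, n = 3) in the knockout and -0.36 (SD 0.14, n = 3) in wild type, and Eya4 was the 1 gene of the 4 lower on the left whose mean difference was larger in the knockout. Intu-knockout pair 2 had the widest gap, -0.80, and wild-type pair 3 the narrowest, -0.21.

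Of the 12 listed genes of the Eya, sine oculis-type and Dach families, 6 were tested, and 0 of the 5 besides Eya4 were called between sides in either genotype by edgeR, with or without pairs, or by DESeq2. With pairs, 1 in the knockout and 0 in wild type had an unadjusted p under 0.05. Their median log2 difference of left minus right was 0.05 in the knockout and -0.09 in wild type. Eya1, close to Eya4 in level at 20.3 CPM, had -0.05 (SE 0.16) in the knockout and -0.09 (SE 0.15) in wild type, and Eya3, at 235 CPM, had 0.05 and 0.00 (SE 0.06 each). Eya2 was faint (1.68 CPM), with -0.29 (SE 0.32) and -0.34 (SE 0.33).

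Rgs4 encodes a GTPase-activating protein that ends signalling by Gi and Gq alpha subunits. It had 26.3, 13.2 and 14.4 CPM in Intu-knockout left lungs, against 37.5, 18.3 and 20.1 CPM in the right lungs of the same numbers. Wild-type embryos had 4.52, 4.34 and 26.9 CPM in left lungs and 10.4, 7.56 and 36.1 CPM in right lungs. Intu-knockout pair 1 and wild-type pair 3 were high on both sides, wild-type pairs 1 and 2 were low on both, and left and right overlapped in both genotypes. Within pairs, on which the gene was chosen, the left was the lower in 6 of 6, as for 3.05% of tested genes. The mean pair difference was -0.48 in the knockout (SD 0.02, n = 3) and -0.79 in wild type (SD 0.38, n = 3). The spread of left libraries about their mean, 0.53 in the knockout and 1.47 in wild type on the log2 scale, exceeded that of the pair differences. Without wild-type right library 3 the fitted side difference in wild type was 0.41, beside -0.59 with all libraries. That fit took no account of pairs and kept left library 3, of the high pair. Without both libraries of wild-type pair 3 the same fit gave -1.02.

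**Figure D2:**
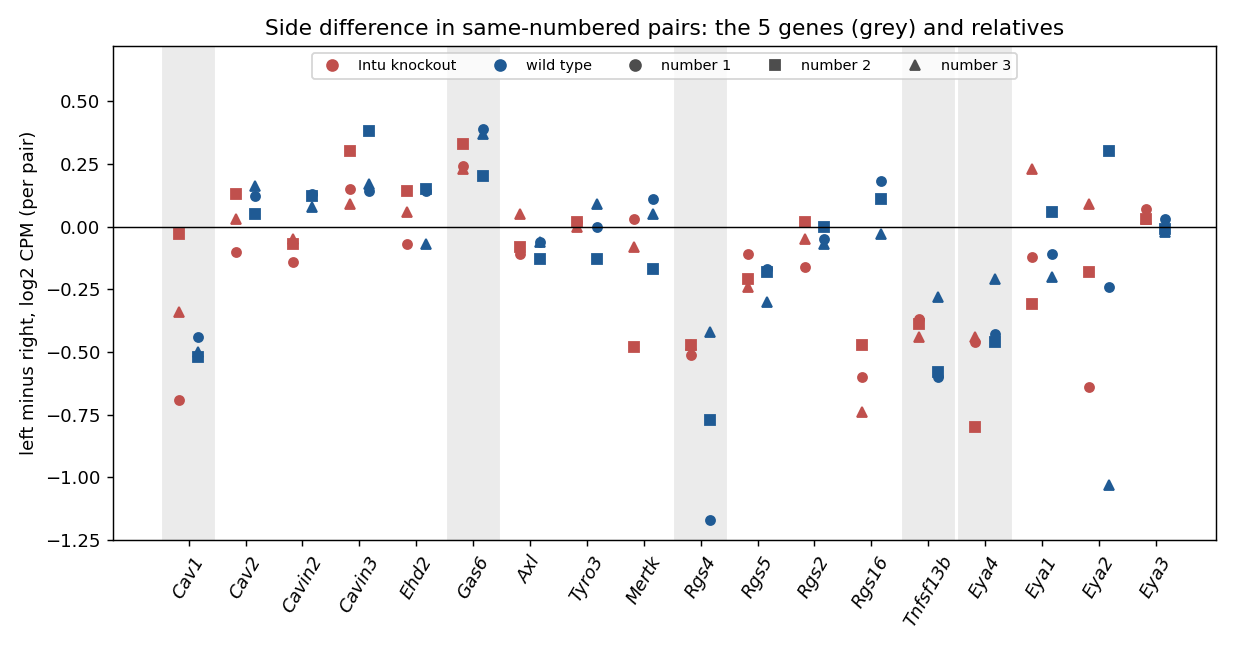
Log2 difference of left minus right CPM in each same-numbered pair (3 Intu-knockout and 3 wild-type pairs) for the 5 genes, shaded grey, and for relatives from the same lists. The points of the 5 genes lie on 1 side of zero, below it for Cav1, Rgs4, Tnfsf13b and Eya4 and above it for Gas6; Cavin3 and Rgs5 also stay on 1 side.

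The other regulators of G-protein signalling were split between the sides. Of 22 listed, 11 were tested; of the 10 besides Rgs4, 7 had a negative difference of left minus right in the knockout and 5 in wild type, and 0 were called between left and right in either genotype by edgeR, with or without pairs, or by DESeq2. Their medians were -0.04 in the knockout and -0.01 in wild type, and 2 in each had an unadjusted p under 0.05 with pairs. Rgs5, a pericyte gene and the nearest tested neighbour of Rgs4, had differences of -0.18 (SE 0.27) and -0.24 (SE 0.28). Its left library was the lower in all 6 pairs, as for 3.05% of tested genes. Rgs16 was -0.65 (SE 0.26) in the knockout and 0.10 (SE 0.25) in wild type at a level of 2.46 CPM. Of the 5 tested Gi and Gq alpha subunits, 0 were called between sides by the same tests, and 0 in the knockout and 1 in wild type had an unadjusted p under 0.05 with pairs.

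The height of Rgs4 went by numbered pair, and so did genes around it. Rgs5, which starts 92.1 kb away, had 107, 72.4 and 67.9 CPM in Intu-knockout left and 115, 83.8 and 80.1 CPM in Intu-knockout right lungs. In wild type the values were 60.3, 54.7 and 101 CPM in left and 68.1, 62.1 and 124 CPM in right lungs. The 4 libraries highest in Rgs5 were the 4 highest in Rgs4, those of Intu-knockout pair 1 and wild-type pair 3. Hsd17b7, a steroid and cholesterol synthesis enzyme that starts 222 kb away, ranged over 48.7 to 80.8 CPM with the same 4 libraries highest. 3110045C21Rik, also 222 kb away, ran the other way, over 1.96 to 5.97 CPM.

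The likeness of these levels was measured over the 12 libraries, of which left and right libraries of one number varied together. Pearson's r of log2 CPM with Rgs4 was 0.95 for Rgs5, 0.84 for Hsd17b7, 0.83 for Nuf2 and -0.80 for 3110045C21Rik. For deviations from the 4 group means, r was 0.96, 0.95, 0.86 and -0.80 in the same order. Farther out, Ddr2 had 0.63. For the 24 nearest tested neighbours of the other 4 genes, r of log2 CPM with their gene lay between -0.36 and 0.52. In deviations from the group means it reached further, from -0.61 for Tbpl1 beside Eya4 to 0.89 for Cav2 beside Cav1. Other high values were 0.74 for Rasa3 beside Gas6, 0.65 for St7 beside Cav1 and 0.62 for 3930402G23Rik beside Tnfsf13b. Of 3 tested pericyte genes, Rgs5 averaged 83 CPM over the 12 libraries, Kcnj8 10.6 CPM and Abcc9 8.89 CPM. Their sum therefore mostly repeats the values of Rgs5. The summed level of the 3 was 131, 93.3 and 81.7 CPM in Intu-knockout left and 145, 109 and 98.6 CPM in Intu-knockout right lungs. In wild type it was 79.7, 66.4 and 114 CPM in left and 87.4, 80.9 and 143 CPM in right lungs, and all 3 had a negative difference of left minus right in both genotypes. With pairs 3 of the 3 in the knockout and 2 in wild type had an unadjusted p under 0.05, and 0 were called by edgeR or DESeq2. Their part in the Rgs4 values was not tested.

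**Figure D3:**
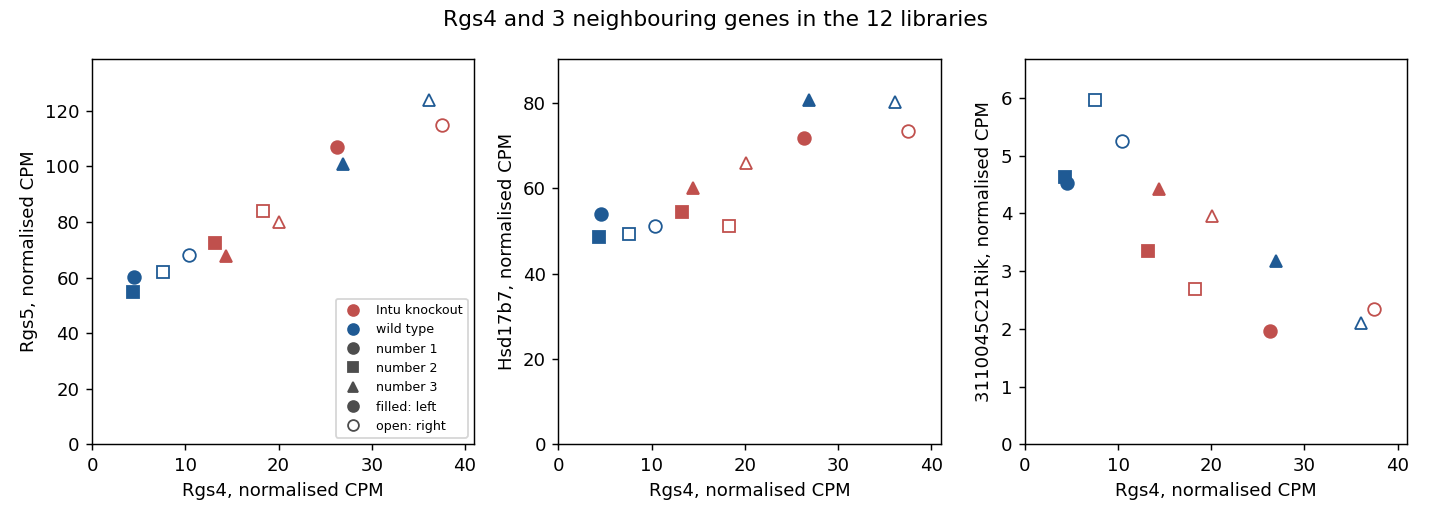
Normalised CPM of Rgs5, Hsd17b7 and 3110045C21Rik (vertical axes) against that of Rgs4 (horizontal axes) in the 12 libraries, filled for left and open for right. Intu-knockout pair 1 and wild-type pair 3 lie at the high end of Rgs4 in every panel, with high Rgs5 and Hsd17b7 and low 3110045C21Rik, and wild-type pairs 1 and 2 lie at the low end.

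The first tested comparison asked whether loss of Intu changes the level of these genes. None of the 5 was called between Intu-knockout and wild-type lungs, over both sides, on the left or on the right, where 5.7%, 1.18% and 1.51% of all tested genes were called (adjusted p under 0.05, edgeR). DESeq2 also called 0 of the 5, and 1, Tnfsf13b, had an unadjusted p under 0.05 in edgeR over both sides and on the left. With pairs as a block 0 of the 5 were called either, beside 1.38%, 1.44% and 1.82% of tested genes. Knockout and wild-type libraries overlapped over both sides for all 5, while 4.02% of tested genes had no overlap, and the median log2 difference of all tested genes was 0.00. Over both sides, Cav1 averaged 277 ± 66.2 CPM in Intu-knockout and 277 ± 55.2 CPM in wild-type lungs, and Gas6 averaged 74.8 ± 13.7 and 73.2 ± 10.6 CPM (SD, n = 6 each). The log2 difference of knockout minus wild type was 0.01 for Cav1 (95% interval -0.26 to 0.28) and 0.04 for Gas6 (-0.16 to 0.23). A change of Cav1 beyond 1.21-fold up or to below 0.837-fold lies outside that interval. The both-sides intervals here and below take left and right libraries of a pair as separate values, so these limits may be too tight. No interval is given with pairs summed. Both directions changed with the pairs included: without Intu-knockout pair 2 the difference was -0.19 for Cav1 and -0.05 for Gas6, and without Intu-knockout pair 1 it was 0.14 and 0.17, with none called.

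Tnfsf13b came closest to a call. It averaged 30 ± 4.99 CPM in Intu-knockout and 26.9 ± 5.16 CPM in wild-type lungs (SD, n = 6 each), a log2 difference of 0.17 (SE 0.07, 95% interval 0.02 to 0.31, unadjusted p = 0.027, adjusted p = 0.179 in edgeR's quasi-likelihood test). That interval takes left and right libraries of a pair as separate values. With their counts summed, 3 against 3, the unadjusted p was 0.0703 and the adjusted p 0.427 (edgeR). On the left its difference was 0.21 (adjusted p = 0.458, edgeR) and on the right 0.12 (adjusted p = 0.634). The myeloid list, which names cells known to make BAFF, had 10 of 10 tested genes with a negative difference over both sides. Of these, 6 were called lower in Intu-knockout lungs (2 with pairs summed), where 3.62% of all tested genes were called lower (1.04% with pairs summed). Tnfsf13b had a positive difference, and the part of these cells in it was not tested.

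Eya4 averaged 20.9 ± 4.7 CPM in Intu-knockout and 19.2 ± 3.05 CPM in wild-type lungs (SD, n = 6 each), with a log2 difference of 0.10 (SE 0.08, 95% interval -0.06 to 0.27, adjusted p = 0.502, edgeR). On the right its libraries just failed to overlap, with the knockout higher, as for 8.47% of tested genes, at 23.6, 27.1 and 24.2 CPM in Intu-knockout lungs and 23.6, 20.5 and 20.8 CPM in wild-type lungs. The difference there was 0.21 (SE 0.11, adjusted p = 0.429, edgeR), against 0.00 (SE 0.11, adjusted p = 1) on the left.

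Rgs4 had the largest difference and the widest interval. It averaged 21.6 ± 9.05 CPM in Intu-knockout and 15 ± 13.3 CPM in wild-type lungs (SD, n = 6 each), with a log2 difference of 0.54 (SE 0.46, 95% interval -0.44 to 1.52, adjusted p = 0.569, edgeR). Rgs4 was also not called by DESeq2 (adjusted p = 0.735) or with pairs summed (adjusted p = 0.751, edgeR). Leaving out wild-type pair 3, the high one, was added after seeing the data. Without its left and right libraries the difference was 1.76 (adjusted p = 0.00241, edgeR), and on the left 2.02 (adjusted p = 0.0327). Removing the highest wild-type pair raises the difference in itself, so these p-values are no support for a change. With all libraries but no filter on low counts, the same difference of 0.54 had an adjusted p of 3.85e-06 (edgeR). The libraries were unchanged and overlapped, at 13.2 to 37.5 CPM in Intu-knockout and 4.34 to 36.1 CPM in wild-type lungs. Why the filter moved the p-value was not tested. Without Intu-knockout pair 1, and with the filter, the difference was 0.16.

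**Figure D4:**
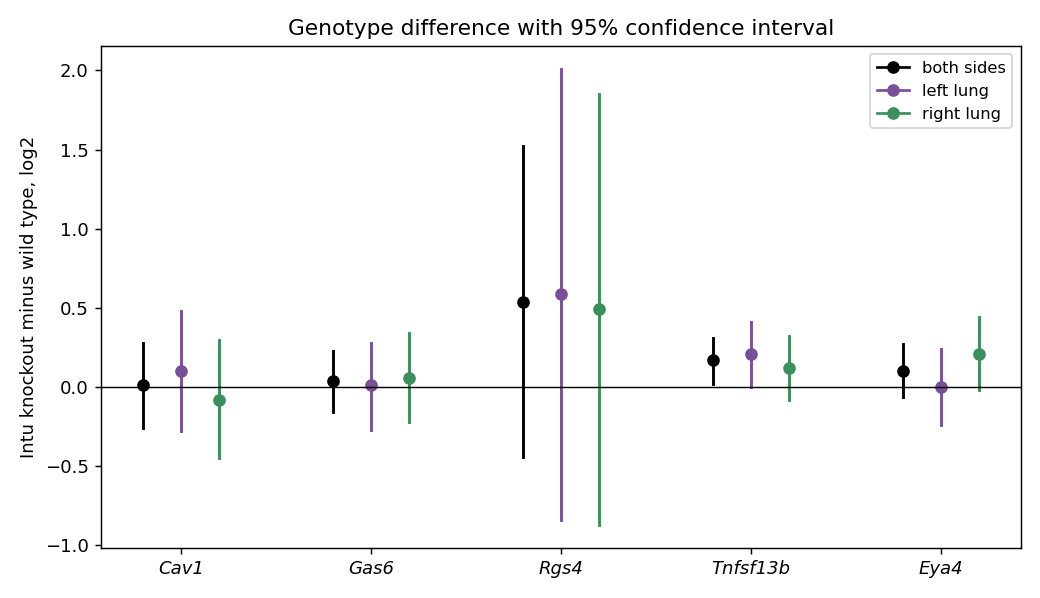
Log2 difference of Intu-knockout minus wild-type lungs for the 5 genes, over both sides (black), in left lungs (purple) and in right lungs (green). Points are edgeR estimates and bars 95% confidence intervals; those of Rgs4 are several times wider than the others, and the both-sides interval of Tnfsf13b, 0.02 to 0.31, is the 1 of the both-sides intervals that does not include zero, with left and right libraries taken as separate values (with pairs summed, its unadjusted p was 0.0703 in edgeR).

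The mean side difference was set beside its counterpart in the other genotype as a description. Knockout minus wild type, it differed by 0.13 for Cav1, -0.05 for Gas6, 0.31 for Rgs4, 0.08 for Tnfsf13b and -0.20 for Eya4 on the log2 scale. For each of the 5 genes the range of the 3 pair differences in the knockout overlapped that in wild type. The genes were chosen for the same sign in both genotypes, which favours such overlap, and the share over all tested genes is not given. Whether the side difference of these genes differs between genotypes was not tested.

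Among the relatives, called genotype differences were in G-protein signalling. Of the 11 tested RGS genes, 2 fell over both sides and 0 rose, with a list median of -0.13, beside 3.62% of all tested genes called lower. With pairs summed 0 of the 11 were called, beside 1.04%. DESeq2 called 2 of the 11, among 665 genes called in all, and the random effect of pairs (limma-voom) 1, among 344. Rgs2, which acts mainly on Gq, had 51.5 ± 8.31 CPM in Intu-knockout left and 53.5 ± 5.55 CPM in Intu-knockout right lungs, against 70.1 ± 5 CPM in wild-type left and 71.9 ± 3.54 CPM in wild-type right lungs (SD, n = 3 each). It fell by 0.44 on the log2 scale (adjusted p = 0.00331, edgeR; 0.0705 with pairs summed). Rgs17, at 3 CPM, fell by 0.74 (adjusted p = 0.0155; 0.0763 with pairs summed).

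Of the 5 tested Gi and Gq alpha subunits, 2 fell and 0 rose, with a list median of -0.33, beside 3.62% of all tested genes called lower. With pairs summed 1 was called (edgeR), beside 1.04% of all tested genes called lower. DESeq2 and the random effect of pairs (limma-voom) also called 1 each. Gnai1, a Gi subunit, averaged 98.3 ± 8.41 CPM in Intu-knockout left and 94.8 ± 5.44 CPM in Intu-knockout right lungs, against 119 ± 2.57 CPM in wild-type left and 124 ± 3.89 CPM in wild-type right lungs (SD, n = 3 each). It fell by 0.33 (adjusted p = 0.000743, edgeR) and was also called with pairs summed (adjusted p = 0.0223). Gnaz fell by 0.33 (adjusted p = 0.0483; 0.215 with pairs summed). In the caveola list, the TAM receptor and vitamin K list and the list of Eya genes and their partners, 0 tested genes were called between genotypes over both sides by edgeR or DESeq2, with medians of 0.10, 0.04 and 0.07. At an unadjusted p under 0.05 there were 0, 0 and 2 (edgeR).

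The genes next to the 5 on their chromosomes were examined for the same side difference. The 3 nearest tested genes on each side, 30 in all, had log2 differences of left minus right of -0.18 to 0.42 in the knockout and -0.32 to 0.24 in wild type. None was called in either genotype by edgeR, with or without pairs, or by DESeq2, and with pairs 3 in each genotype had an unadjusted p under 0.05. The widest values belonged to faint genes, Tfec at 1.39 CPM beside Cav1 (0.42, SE 0.43 in the knockout) and Gm10824 at 7.34 CPM beside Eya4 (-0.32, SE 0.18 in wild type). Tcf21, a mesenchymal transcription factor beside Eya4, had 0.11 (SE 0.13) in both genotypes. Between genotypes 1 of the 30 was called by edgeR, beside 5.7% of all tested genes, so the share among neighbours was no higher than the background. It was Met, the receptor of hepatocyte growth factor beside Cav1, which fell by 0.26 (adjusted p = 0.0454, edgeR; 0.132 with pairs summed).

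**Figure D5:**
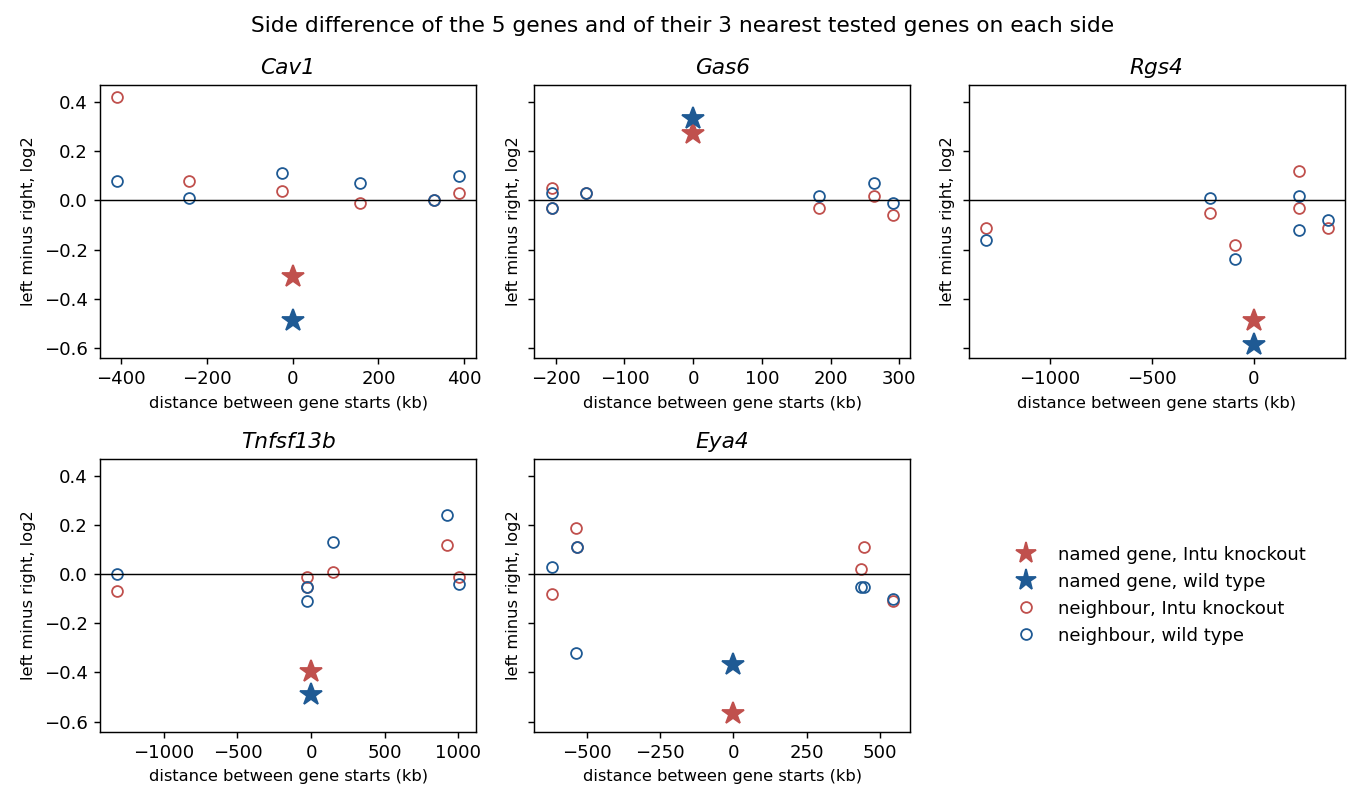
Fitted log2 difference of left minus right for each of the 5 genes (stars at zero distance) and for the 3 nearest tested genes on each side (open circles), in Intu-knockout and wild-type lungs, against the distance between gene starts in kb. The circles lie between -0.32 and 0.42, and the stars lie at -0.31 and -0.49 for Cav1, 0.27 and 0.33 for Gas6, -0.49 and -0.59 for Rgs4, -0.40 and -0.49 for Tnfsf13b and -0.57 and -0.37 for Eya4, knockout first.

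The genes whose levels ran most like each of the 5 were found among 7144 genes with a mean of at least 5 CPM, by Pearson's r of log2 CPM over the 12 libraries. For Cav1 they were Serpine2, a secreted protease inhibitor (r = 0.91), Npnt, an extracellular matrix ligand of integrin alpha 8 (0.89), and N4bp2l1 (0.87). Npnt had 149, 196 and 167 CPM in Intu-knockout left and 205, 239 and 196 CPM in Intu-knockout right lungs. In wild-type embryos it had 157, 149 and 155 CPM in left and 223, 223 and 211 CPM in right lungs. Its left library thus lay below the right in every pair too, as for 3.05% of tested genes. For Gas6 the nearest were Sema4f, a semaphorin (0.91), Sh3tc1 (0.88) and Epha1, an ephrin receptor (0.87).

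Likeness within groups was measured on deviations from the 4 group means, which removes side and genotype. Cav1 kept 0.89 with Serpine2, 0.87 with Npnt and 0.80 with N4bp2l1, and Gas6 kept 0.90 with Sema4f, 0.89 with Sh3tc1 and 0.82 with Epha1. Rgs4 was most like Rgs5 (0.95; deviations 0.96), Gm4735 on chromosome 2 (0.94; 0.97) and Acad10 (0.93; 0.93). Tnfsf13b was most like Thsd7b (0.88; 0.74), Eya4 (0.87; 0.31) and Steap2 (0.86; 0.60). Eya4 was most like Ppp1r12a, a myosin phosphatase subunit (0.93; 0.67), 1700109H08Rik (0.92; 0.80) and Itpr1, an endoplasmic reticulum calcium channel (0.89; 0.72). All 5 genes were picked for a side difference, which enters r over the 12 libraries, so the 0.87 between Tnfsf13b and Eya4 and the -0.05 between Cav1 and Gas6 restate that choice in part. In deviations from the group means the 2 values were 0.31 and 0.80.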

How the data were processed

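The 12 RNA-sequencing libraries comprised 3 per genotype and side. The authors deposited raw counts per gene, without normalisation; per the submitters' processing notes, the authors used FastQC, HISAT2 with GRCm38, and featureCounts, with versions and the strand setting not given in the sources used here. As analysed, the table ends within a row on chromosome 8. That 1 row was left out, leaving 31078 genes (chromosomes 1 to 7, 10 and X, and some of 8), of which 30915 (99.5%) matched a symbol by ID, and the rest of the genome was not analysed here. Totals of 10290103 to 10753386 counts are therefore part of each library's depth.

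A filterByExpr filter (minimum count 10 and minimum total 15) kept 9519 genes, and libraries were scaled with TMM (factors 0.992 to 1.01). The main test was edgeR 4.0.16 (glmQLFit and glmQLFTest, R 4.3.3) on all 12 libraries in 4 groups without covariates (8 residual degrees of freedom), with Benjamini-Hochberg adjustment over all tested genes at 0.05. Levels are CPM with TMM factors, differences are log2 values, and pair differences and r use log2 CPM with a prior count of 2. Alternatives were DESeq2 1.42.0, RLE factors, no filter, each library left out, fits of 2 groups alone, blocks by number (edgeR, or limma 3.58.1 with a random effect, correlation 0.341), left and right counts summed, and, added after seeing the data, each numbered pair left out. The procedure was tested on simulated counts.

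Pairing was checked on deviations from the group means: left and right libraries of one number within a genotype had r of 0.253 to 0.486 in all 6 pairs, other combinations -0.393 to -0.00284, and one number across genotypes -0.103 to -0.0423. Deviations cancel within a group, so a positive r for one number pushes the other combinations in that genotype below zero. Their negative r is therefore no separate evidence. Left and right libraries of one number were thus treated as pairs inside each genotype, although the labels do not state it. Replicates were not duplicates, with a chi-square of 4.57 to 13.6 per degree of freedom between them.

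The 5 genes, the gene lists and the rule for named genes were chosen with earlier results of these data known. The rule named the 5 genes, Intu and Gli1, called and most similar list members, the 3 nearest tested genes on each side, and the 3 genes with the highest r. Promoters came from RefSeq (GRCm38.p6). Some results are not reported here.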

Additional observations from a re-analysis of the deposited data

How the results depend on the processing

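Of 360 genotype values of the 5 genes under alternatives, 333 kept their direction and side of the threshold. The directions of Cav1 and Gas6, whose differences were near 0, turned in 22. Over both sides Cav1 stood at -0.02 with the replicate block as a random effect and -0.01 with number shared by all groups as the block, at -0.14 to 0.11 without 1 library and at -0.19 (knockout pair 2) and -0.06 (wild-type pair 2) without a pair. Gas6 stood at -0.02 to 0.11 without 1 library and at -0.05, -0.01 and -0.01 without knockout pair 2, knockout pair 3 and wild-type pair 2. On the left, Cav1 stood at -0.20 to 0.31 without 1 library or pair, and Gas6 at -0.10 to 0.15 without 1 library and -0.10, -0.03 and -0.07 without those pairs. On the right Gas6 stood at -0.01 to 0.19. Rgs4 was called in 5 alternatives: without wild-type pair 3 (1.76 over both sides and 2.02 on the left) and with no filter (0.54 over both sides, adjusted p = 3.85e-06; 0.58 on the left, adjusted p = 0.00324; 0.49 on the right, adjusted p = 0.0152, edgeR); the cause was not tested. Over both sides without 1 library it ranged over 0.34 to 1.25. The block changed no other call of the 5. Of 230 side values, 229 kept their sign and 23 moved by more than the SD of the pairs. The exception was Rgs4 in wild type, at 0.41 without right library 3, within a range of -2.02 to 0.41 without 1 library. These fits took no account of pairs, and without both libraries of wild-type pair 3 the value was -1.02. The genes were chosen for the sign of their side difference in the same libraries, so its persistence is no sign of stability.

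Counts of called genes moved more. Over both sides 543 genes were called, against 1084 with no filter, 344 with the random block, 141 with pairs summed, 354 to 569 without 1 library, and 331 and 263 without knockout pair 3 and wild-type pair 2. On the left 112 were called, against 193 with DESeq2, 510 with no filter, 177 with number shared by all groups as the block, 49 with the 2 groups alone, 45 to 137 without 1 library, and 58, 45 and 59 without knockout pair 3, wild-type pair 1 and wild-type pair 2. On the right 144 were called, against 224 with DESeq2, 595 with no filter, 68 to 175 without 1 library, and 48 and 66 without knockout pair 3 and wild-type pair 2. Between sides in the knockout 0 were called, against 4 with DESeq2, 31 with no filter, 2 with the random block, 43 with the pair block and 0 to 1 without 1 library. In wild type 1 was called, against 11 with DESeq2, 46 with no filter, 13 with the random block, 63 with the pair block, 1 to 3 without 1 library, 6 and 7 without knockout pairs 1 and 2, and 0 without any wild-type pair. Groups of 3, and pairs that the labels do not state, limit the precision.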

Other observations

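Of 63 tested markers of other cell types in 12 lists, 4 were called between sides in the knockout and 6 in wild type with pairs as a block (edgeR), beside 0.452% and 0.662% of all tested genes. None was called without pairs (edgeR; 7 in the knockout and 5 in wild type had an unadjusted p under 0.05), and with pairs as a random effect (limma-voom) 0 were called in the knockout and 1, Hbb-y, in wild type. DESeq2 called 0 and 1. Sox2, a transcription factor of the proximal airway epithelium, averaged 33 CPM in Intu-knockout left and 43.5 CPM in Intu-knockout right lungs, a log2 difference of left minus right of -0.40 (adjusted p = 0.021 with pairs), and -0.11 in wild type (adjusted p = 0.94). The other 4 tested epithelial markers had -0.09 to 0.00 in the knockout. Lrrn4, a mesothelial gene, averaged 44.4 CPM in wild-type left and 54.6 CPM in wild-type right lungs (-0.31, adjusted p = 0.0458 with pairs), and had -0.20 in the knockout (adjusted p = 0.357). Stmn2, a neuronal gene, averaged 8.95 CPM in wild-type left and 14 CPM in wild-type right lungs (-0.66, adjusted p = 0.0225 with pairs), and had -0.09 in the knockout (adjusted p = 0.923). Whether these differences differ between genotypes was not tested.

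Hbb-y, the embryonic beta-like globin, averaged 2747 CPM in wild-type left and 1977 CPM in wild-type right lungs (0.47, adjusted p = 3.03e-06 with pairs and 0.242 without), and 2734 CPM in Intu-knockout left and 2411 CPM in Intu-knockout right lungs (0.18, adjusted p = 0.185 with pairs). Alb and Afp, which liver cells make, were called higher in Intu-knockout left than right lungs with pairs (adjusted p = 8.45e-05 and 0.00353). Intu-knockout left lung 1 held 40.3 CPM of Alb, against 0.383 and 2.7 CPM in Intu-knockout left lungs 2 and 3.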
